A study of Mus musculus with 24 samples.

Results

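The 10 genes described here encode transporters that move bile salts, phospholipid, cholesterol and organic anions across the membranes of liver cells. They are Abcb11, Abcb4, Abcg5, Abcg8, Slc10a1, Slco1a1, Slco1a4, Slco1b2, Slco2b1 and Abca1. They were chosen by symbol and role, and found in the array's platform annotation as 20 of 34945 probe sets that carry 1 gene symbol, which makes 10 of 18193 genes. Each gene was read from its brightest probe set, the one with the highest mean over all arrays.

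The livers came from 24 male BALB/c mice, 6 in each of 4 diet groups, and the RNA of each mouse was hybridized to 1 Affymetrix mouse expression array. Controls were fed AIN93G, a purified diet for rodents, and the remaining groups were fed AIN93G with 0.1%, 0.5% or 1.0% quercetin, a plant flavonol, for 14 days. All mice were 6 weeks old when obtained, ate a nonpurified chow for a week before the diets began, and were killed under pentobarbital. The labels name no transgene or mutation, and the mice were housed 3 to a cage. The labels do not give the cage of each mouse, so cage and diet cannot be told apart.

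Bile formation is a relay across the hepatocyte. Bile salts are taken up from portal blood at the sinusoidal membrane, largely by the sodium-coupled carrier Slc10a1 and by organic anion transporters of the Slco family, and are pumped into the canaliculus by Abcb11. Abcb4 brings phosphatidylcholine to the canalicular face and the Abcg5/Abcg8 heterodimer exports sterols, while Abca1 loads cholesterol onto apolipoprotein A-I. Bile acids bound to the farnesoid X receptor raise Abcb11 transcription, and oxysterols acting on the liver X receptors raise Abcg5, Abcg8 and Abca1.

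Sequences upstream of the first transcribed base were read from RefSeq's promoter table for all 10 genes (build GRCm38.p6). Those of Abcb11 and Slco1b2 are shown because they hold an inverted repeat of the kind bound by the farnesoid X receptor, and that of Abcg5 and Abcg8 because the pair shares it. The Abcb11 stretch is the 250 bases before its start at chr2:69342617-69342866, minus strand. The Slco1b2 stretch is 53 bases at chr6:141629410-141629462, plus strand. Abcg5 and Abcg8 start head to head, and the 109 bases between their starts lie at chr17:84683012-84683120, printed on the plus strand, which is the strand of Abcg8.
Abcb11: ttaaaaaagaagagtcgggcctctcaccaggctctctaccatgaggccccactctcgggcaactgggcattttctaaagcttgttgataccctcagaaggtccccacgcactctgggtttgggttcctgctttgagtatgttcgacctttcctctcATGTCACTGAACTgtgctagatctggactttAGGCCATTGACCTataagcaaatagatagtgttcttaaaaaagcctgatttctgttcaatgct
Slco1b2: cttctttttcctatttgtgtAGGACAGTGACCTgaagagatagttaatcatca
Abcg5 to Abcg8: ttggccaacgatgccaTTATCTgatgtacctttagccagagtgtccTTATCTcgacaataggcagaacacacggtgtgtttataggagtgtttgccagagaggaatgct

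Capitals in the Abcb11 and Slco1b2 sequences mark an inverted repeat, AGGTCA followed after 1 base by TGACCT, with at most 1 mismatch allowed in each 6-base unit. This repeat reads the same on both strands. Of the 10 genes, 2 held it in the 250 bases upstream of a start, Abcb11 at 2 places and Slco1b2 at 1 place, and so did 0.618% of 32851 such windows in the table. Capitals between Abcg5 and Abcg8 mark AGATAA, the letters read by GATA factors, or its reverse complement TTATCT. These letters occurred 2 times there, while 3.98% of 109-base windows next to a start held at least 1 match and 0.186% held 2 or more. A direct repeat, AGGTCA followed after 4 bases by AGGTCA on either strand with the same mismatches, is the kind bound by the liver X receptors. It was matched in 0 of the 10 genes and in 1.48% of all windows. The 3 motifs and the mismatch rule were chosen after the letters of these promoters had been seen, so these matches describe the sequences and test nothing.

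Values below are log2(intensity + 1) after quantile normalization, differences are on that scale with their standard error (SE) from limma over all 24 arrays, and a gene passed at a Benjamini-Hochberg adjusted p under 0.05 over all 18193 genes. Slopes are log2 changes per 1% of quercetin in the diet. The first principal component, with 9.15% of the variance, set 4 arrays apart: replicates 4 and 6 of the 0.5% group and replicates 4 and 5 of the 1.0% group, with scores from 45.4 to 64.2 against -20.6 to 5.99 in the other 20. The 7 measured hepatocyte markers all lay above the median gene. In the 4 arrays the summed intensity of 5 neutrophil markers was 107 to 313, against 39.3 to 80.5 in the other 20. That of 7 cholangiocyte markers, none above the median gene, was 63.6 to 186 against 17.5 to 49.2. A sum can rest on few markers: at 0.5% against control 4 of these 7 were lower over all arrays and 3 without the 4. At 1.0% 2 of the 7 were lower over all arrays and 4 without the 4. Of the 5 neutrophil markers 2 were lower than in controls at 0.5% and 0 at 1.0%, both over all arrays and without the 4. Summed adipocyte markers (4 measured) reached 151 to 557 in the 4 arrays and 72.0 to 168 in the others, ranges that overlapped. No marker of these lists was at 0. For the other 10 marker lists the ranges of the 4 and the other 20 arrays also overlapped. These were lists of hepatocyte zones, Kupffer, endothelial, stellate, lymphoid, erythroid, intestinal, acinar and muscle cells. Some of them lay low in the 4 arrays. Intestinal sums were 731 to 922 against 919 to 1138, stellate sums 489 to 624 against 612 to 779, and endothelial sums 450 to 492 against 475 to 594. Only 1 of the 4 measured intestinal markers lay above the median gene, so that sum rests on few genes. Whether it stands for intestinal cells was not tested. The part of these cells in the transporter values was not tested, and in whole liver fewer cells of a type and less RNA per cell cannot be told apart. Results are therefore also given without these 4 arrays. Precision is limited by the number of arrays per group.

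None of the 10 transporters passed in any of the 8 comparisons with limma. Against control, 7 of 10 were lower at 0.1%, 9 of 10 at 0.5% and 8 of 10 at 1.0%, with median differences of -0.037, -0.20 and -0.14. Over all genes the medians were 0.012, -0.021 and -0.0099, with 47.7%, 53.4% and 51.6% of genes lower. Without normalization between arrays, where the median gene itself shifted by 0.11, 0.15 and 0.054, only 1, 4 and 8 of the 10 were lower, while 8, 9 and 8 lay below that median. The 3 comparisons share the control mice. For the slope, 8 of 10 transporters were negative, with a median of -0.14 against -0.014 over all genes, of which 52.4% were negative. Leaving out the 4 arrays left 8 of 10 lower at 0.5%, 6 of 10 at 1.0% and 6 of 10 for the slope, with medians of -0.070, -0.083 and -0.046. Over all genes the same fit gave 50.02%, 48.6% and 49.2% lower, with medians of -0.00019, 0.0092 and 0.0049. Counts of 6 in 10 are near these shares.

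At an unadjusted p under 0.05, the counts of transporters were 0 at 0.1%, 2 at 0.5% and 2 at 1.0% against control. The shares of all genes under that threshold were 5.11%, 7.65% and 8.92%. For the slope the count was 3 of 10, against 10.9% of all genes, and for any difference among the 4 groups it was 2, against 9.49%. Between doses 1 transporter fell under the threshold for 0.5% against 0.1% (10.1% of all genes), 3 for 1.0% against 0.1% (9.42%) and 0 for 1.0% against 0.5% (6.19%). After adjustment the shares of all genes that passed were 0% at 0.1%, 0.0165% at 0.5% and 0.022% at 1.0% against control. They were 0.214% for 0.5% against 0.1%, 0.253% for 1.0% against 0.1%, 0.022% for 1.0% against 0.5%, 0.181% for any difference and 0.0989% for the slope. A count of 0 of 10 is no departure from shares of this size. Leaving out the 4 arrays, the counts at an unadjusted p under 0.05 were 0 at 0.5%, 1 at 1.0% and 1 for the slope, Abcb11 in both cases, against 5.13%, 8.11% and 8.42% of all genes in the same fit. For 1.0% against 0.1% that fit gave 2 (8.28% of all genes), Abcb11, which was lower, and Abcb4, which was higher. Counts of 1 in 10 are near these shares. Leaving out single arrays moved the count at 0.5% from 2 to 0 (replicate 6 of the 0.5% group), 1 (its replicate 4 or control replicate 1) or 4 (its replicate 5), and the count at 1.0% from 2 to 1 (replicate 4 of the 1.0% group) or 4 (its replicate 1). The count for 1.0% against 0.1% went from 3 to 1 without replicate 1 or 5 of the 0.1% group or replicate 4 or 5 of the 1.0% group. Without normalization between arrays the counts at that threshold were 0 in each pairwise comparison and for any difference, and 1 for the slope.

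**Figure D1:**
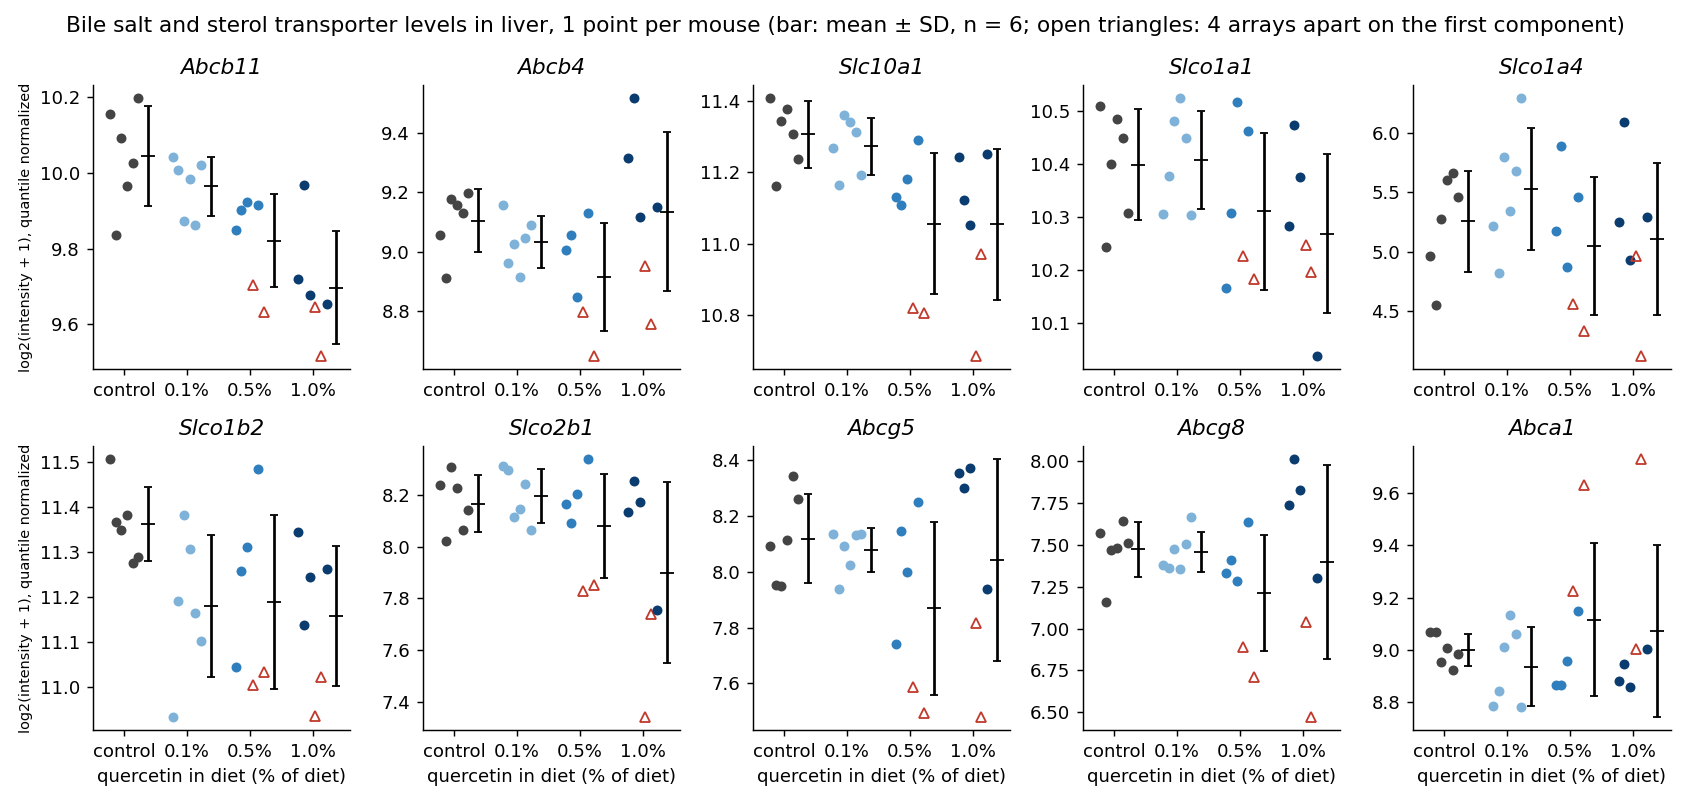
Normalized log2 intensity of each transporter gene (vertical axes) by percent of quercetin in the diet (horizontal axes), with 1 point per mouse and the mean ± SD of 6 mice as a bar; open triangles are the 4 arrays apart on the first principal component. Abcb11 means step down from 10.05 in controls to 9.70 at 1.0%. The triangles sit at the low end of several genes, and most of them at the high end of Abca1.

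Abcb11, the bile salt export pump, had the smallest p of the 10 genes for the slope. Control livers had a lowest value of 9.84, a median of 10.06 and a highest of 10.20. At 0.1% the corresponding values were 9.86, 9.99 and 10.04, and at 0.5% they were 9.63, 9.88 and 9.92. At 1.0% they were 9.52, 9.67 and 9.97. All 6 livers of each quercetin group lay below the control mean, and 5 of the 6 livers at 1.0% lay below the lowest control, so the ranges overlapped through 1 liver.

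Group means of Abcb11 were 10.05 ± 0.13 in controls, 9.96 ± 0.08 at 0.1%, 9.82 ± 0.12 at 0.5% and 9.70 ± 0.15 at 1.0% (SD, n = 6 each). The difference from control was -0.08 (SE 0.09) at 0.1%, -0.22 (SE 0.09) at 0.5% and -0.35 (SE 0.09) at 1.0%. Without normalization between arrays the one at 0.5% was 0.0010. The difference at 1.0% is a level 21.5% lower, with a 95% interval on the log2 scale from -0.53 to -0.17. It did not pass over all genes (limma, unadjusted p = 0.000692, adjusted p = 0.265).

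Across the 4 diets the Abcb11 slope was -0.33 per 1% quercetin (SE 0.08, 95% interval -0.49 to -0.18), which missed the threshold at an adjusted p of 0.0725 in limma. Over 36 alternative analyses this slope ran from -0.39 to -0.27 and its adjusted p from 0.00924 to 0.733, passing in 4 of them. Replicate 2 of the 1.0% group bore on the call. Its normalized value of 9.97 was the highest of its group, while its deposited intensity of 651 was the lowest of all 24 arrays. Low deposited values were not particular to Abcb11 on that array. Its median intensity of 5.53 was the lowest of the 1.0% group, though controls reached down to 4.78. Its deposited Slc10a1 intensity of 1477 was also the lowest of the 24. Without this replicate the Abcb11 slope was -0.39 and passed (limma, adjusted p = 0.0293). Without the 4 arrays set apart, the slope was -0.27 (SE 0.08, adjusted p = 0.258) and the difference at 1.0% was -0.29 (SE 0.09, adjusted p = 0.414), so both kept their direction.

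Abcb4, the phospholipid floppase of the canaliculus, showed no ordered series over dose. Its means were 9.10 ± 0.11 in controls, 9.03 ± 0.09 at 0.1%, 8.91 ± 0.18 at 0.5% and 9.13 ± 0.27 at 1.0% (SD, n = 6 each). The highest liver of all, at 9.52, and one of the low ones, at 8.76, both belonged to the 1.0% group. The slope was 0.03 (SE 0.11, 95% interval -0.19 to 0.25; limma, adjusted p = 0.948). With the 4 arrays left out it was 0.17 (SE 0.09; limma, adjusted p = 0.662). The difference of 1.0% from 0.1% was then 0.24 (SE 0.10; limma, unadjusted p = 0.0211, adjusted p = 0.502), against 0.10 (SE 0.11) over all arrays.

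The sterol exporter subunits Abcg5 and Abcg8 spread widely within the 2 higher-dose groups. Abcg8 had a lowest value of 7.16, a median of 7.49 and a highest of 7.64 in controls, and 7.36, 7.43 and 7.66 at 0.1%. At 0.5% it had 6.71, 7.31 and 7.64, and at 1.0% it had 6.47, 7.52 and 8.01. The ranges overlapped throughout, and the 1.0% group held both the lowest and the highest of the 24 livers. The SD of Abcg8 was 0.17, 0.12, 0.35 and 0.58 from the control group to 1.0%, and without the 4 arrays it was 0.16 at 0.5% and 0.30 at 1.0%. The difference in spread was not tested.

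Abcg5 followed the same livers, with medians of 8.10, 8.11, 7.87 and 8.12 from control to 1.0%. Its lowest values were 7.95, 7.94, 7.49 and 7.48, and its highest were 8.34, 8.14, 8.25 and 8.37. The groups overlapped, and the 1.0% group again spanned the widest range. Slopes were -0.09 (SE 0.14) for Abcg5 and -0.11 (SE 0.18) for Abcg8, with limma adjusted p-values of 0.866 and 0.888. With those 4 arrays left out both slopes turned positive, at 0.11 (SE 0.11) and 0.22 (SE 0.12), with limma adjusted p-values of 0.837 and 0.652.

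**Figure D2:**
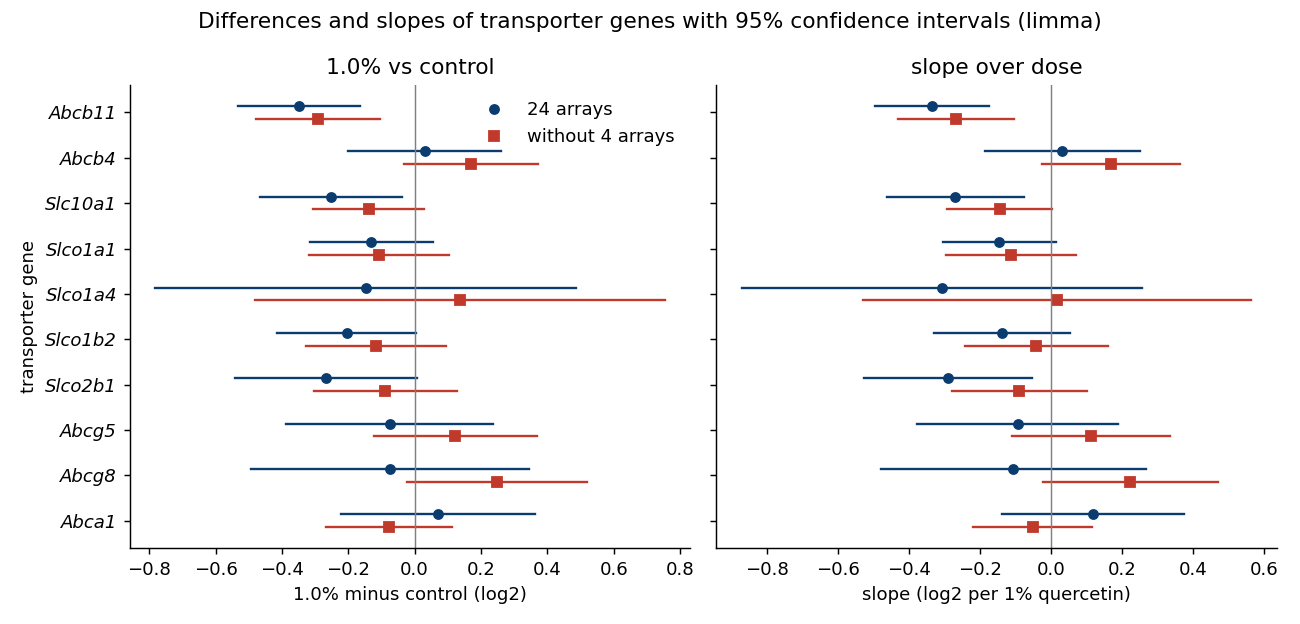
Difference of the 1.0% group from control (left, log2) and slope over dose (right, log2 per 1% quercetin) for each transporter gene, with 95% confidence intervals from limma, for all 24 arrays (circles) and without the 4 arrays apart on the first component (squares). The Abcb11 interval lies below 0 in both panels and both sets of arrays; the slopes of Slco1a4, Abcg5, Abcg8 and Abca1 change side when the 4 arrays are left out.

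Among carriers on the blood side of the hepatocyte, Slc10a1, the sodium taurocholate cotransporter, had a lowest value of 11.16, a median of 11.33 and a highest of 11.41 in controls, and 11.16, 11.29 and 11.36 at 0.1%. At 0.5% it had 10.81, 11.12 and 11.29, and at 1.0% it had 10.68, 11.09 and 11.25. All 6 livers in each of the 2 higher-dose groups lay below the control mean, and 4 of 6 in each lay below the lowest control. The ranges still overlapped.

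Slc10a1 means were 11.31 ± 0.09, 11.27 ± 0.08, 11.06 ± 0.20 and 11.05 ± 0.21 from control to 1.0% (SD, n = 6 each). The difference from control was -0.25 (SE 0.10) both at 0.5%, where the level was 15.9% lower, and at 1.0%. Neither passed (limma, unadjusted p = 0.0244 and 0.0233, adjusted p = 0.572 and 0.481). Leaving out the 4 arrays, they were -0.13 and -0.14 (SE 0.08 each; limma, unadjusted p = 0.126 and 0.0999), moves of more than 1.5 times. Between the 0.5% and 1.0% groups the difference was -0.0021 (SE 0.10), with a 95% interval from -0.22 to 0.21. The slope was -0.27 (SE 0.09; limma, adjusted p = 0.262), and it was -0.14 (SE 0.07; limma, adjusted p = 0.612) without those arrays.

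Slco2b1 is a broad organic anion carrier. By brightest probe set in the main fit, only it among the 4 Slco genes had an unadjusted p under 0.05 for the slope in limma. Its lowest, median and highest values were 8.02, 8.19 and 8.31 in controls, 8.06, 8.20 and 8.32 at 0.1%, and 7.83, 8.13 and 8.34 at 0.5%. At 1.0% they were 7.34, 7.94 and 8.26, with 3 of 6 livers below the lowest control and the upper end level with the controls. The slope was -0.29 (SE 0.11; limma, adjusted p = 0.349). The 20 arrays left without the 4 gave -0.09 (SE 0.09; limma, adjusted p = 0.850).

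Slco1b2, a liver carrier for bile salts and bilirubin conjugates, had differences from control of like size at every dose in its brightest probe set. Means were 11.36 ± 0.08 in controls and 11.18 ± 0.16, 11.19 ± 0.19 and 11.16 ± 0.16 in the quercetin groups (SD, n = 6 each). Below the lowest control lay 4 of 6 livers at 0.1%, 4 of 6 at 0.5% and 5 of 6 at 1.0%. The differences were -0.18, -0.17 and -0.20 (SE 0.10 each) and none passed (limma, adjusted p = 0.993, 0.719 and 0.581). In the 20 remaining arrays those at 0.5% and 1.0% were -0.09 and -0.11 (SE 0.10 each). The next brightest probe sets did not show a level series: 1 gave -0.08, -0.02 and -0.18 from 0.1% to 1.0%, and the other gave -0.0038, -0.24 and -0.17.

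Slco1a1, a carrier of organic anions that is high in male mouse liver, had means of 10.40 ± 0.10, 10.41 ± 0.09, 10.31 ± 0.15 and 10.27 ± 0.15 from control to 1.0% (SD, n = 6 each). Its slope was -0.14 (SE 0.08, limma unadjusted p = 0.0756 and adjusted p = 0.517), and -0.11 (SE 0.09) without the 4 arrays. Slco1a4, a related carrier, varied most on the log2 scale between mice of 1 group, and it was the dimmest of the 10 genes. Its mean lay above 67.6% of genes, against 88.5% or more for the others. The part of low signal in this spread was not tested. Its means were 5.25 ± 0.43, 5.53 ± 0.51, 5.05 ± 0.58 and 5.11 ± 0.64, and livers at 1.0% ran from 4.12 to 6.09. Its slope of -0.31 (SE 0.27; limma, adjusted p = 0.738) was 0.02 (SE 0.26) without the 4 arrays. The 95% interval of its 1.0% difference ran from -0.78 to 0.49, the widest of the 10 genes.

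Abca1, the exporter that feeds cholesterol to apolipoprotein A-I, had its highest values in livers where several of the other genes were low. Its lowest, median and highest values were 8.92, 8.99 and 9.07 in controls and 8.78, 8.93 and 9.13 at 0.1%. They were 8.87, 9.05 and 9.63 at 0.5% and 8.86, 8.97 and 9.73 at 1.0%. All ranges overlapped, and 2 single livers, replicate 6 at 0.5% and replicate 5 at 1.0%, reached 9.63 and 9.73. Both are among the 4 arrays set apart. The slope was 0.12 (SE 0.12; limma, adjusted p = 0.791), and -0.05 (SE 0.08; limma, adjusted p = 0.919) without them.

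Of the 10 genes 5 had more than 1 probe set, and the bright ones of a gene had slopes of like size. The second probe set of Slc10a1 had a slope of -0.28 (SE 0.12) and correlated with the first at r = 0.896 over the 24 arrays. For Slco1a1 the second gave -0.19 (SE 0.08, limma unadjusted p = 0.0247 as a row of its own). Of the 5 probe sets for Slco1b2, the 3 brightest gave -0.14, -0.13 and -0.20, and the 2 dim ones, with means of 4.05 and 2.25, gave 0.11 and 0.33. For Slco2b1 the second gave -0.30 (SE 0.15), while another, dim at a mean of 2.02, gave 1.15 (SE 0.45). The 3 probe sets of Abca1 gave 0.12, 0.05 and 0.13. Tested as rows of their own, none of the 20 passed (limma, smallest adjusted p for the slope 0.130).

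**Figure D3:**
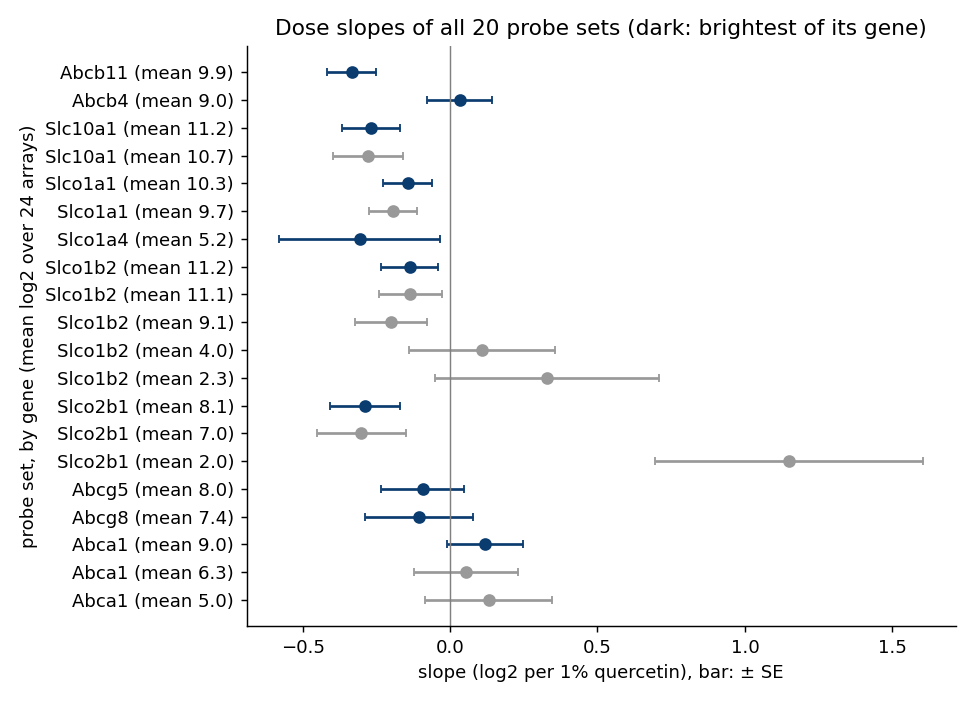
Slope over dose (horizontal axis, log2 per 1% quercetin, bars ± SE) of all 20 probe sets, labelled by gene and mean log2 level over 24 arrays; dark points are the brightest probe set of each gene. Bright probe sets of a gene lie close together, and the probe set at 1.15 is the dim one of Slco2b1, with a mean of 2.02.

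Over the 24 livers the 2 subunits of the sterol exporter varied together, with Pearson r = 0.921 between Abcg5 and Abcg8, 0.914 after group means were removed and 0.784 in the 20 arrays left without the 4. These points share array, normalization and diet group, so the coefficients are descriptions. Abcb4 also followed Abcg8 (r = 0.854, and 0.763 without the 4 arrays), although it lies on another chromosome. Abca1 ran opposite to Abcg8 at r = -0.756, which was -0.168 without the 4 arrays. In those 4 livers Abcg8 was 6.89, 6.71, 7.04 and 6.47 and Abca1 was 9.22, 9.63, 9.003 and 9.73, in the order given above.

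**Figure D4:**
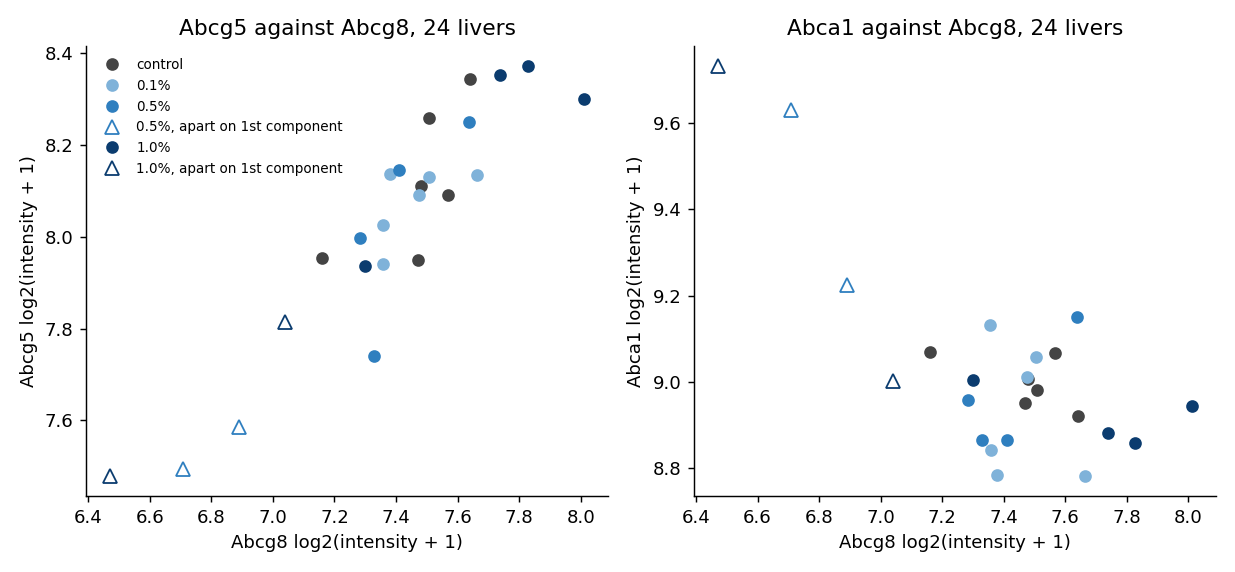
Abcg5 (left) and Abca1 (right) against Abcg8, each as normalized log2 intensity, with 1 point per liver coloured by percent of quercetin in the diet; open triangles are the 4 arrays apart on the first component. Abcg5 rises with Abcg8 along the whole range (r = 0.921), whereas the inverse relation of Abca1 (r = -0.756) was -0.168 without the triangles.

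Several correlations between the other transporters also depended on the 4 arrays. That of Slco1a1 with Slco2b1 did not, at r = 0.620 over 24 arrays and 0.630 over 20. Abcb11 correlated with Slc10a1 at r = 0.673, with Slco2b1 at 0.689 and with Slco1a1 at 0.593 over 24 arrays. Over 20 arrays these were 0.397, 0.477 and 0.438. Its coefficients with Abcb4, Abcg5 and Abcg8 were 0.437, 0.523 and 0.560 over 24 arrays and 0.0174, -0.0024 and -0.0031 over 20. With the uptake carriers Slco1a4 and Slco1b2 they were 0.523 and 0.423 over 24 arrays and 0.162 and 0.0357 over 20. After group means were removed over 24 arrays, the order differed, with 0.765 for Abcb4, 0.718 for Abcg8 and 0.630 for Abcg5 against 0.438 for Slc10a1, 0.453 for Slco1a1 and 0.596 for Slco2b1. Those of Abca1 turned positive over 20 arrays with Slco1b2 (-0.175 to 0.702), Slc10a1 (-0.409 to 0.532) and Slco1a1 (-0.238 to 0.368).

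**Figure D5:**
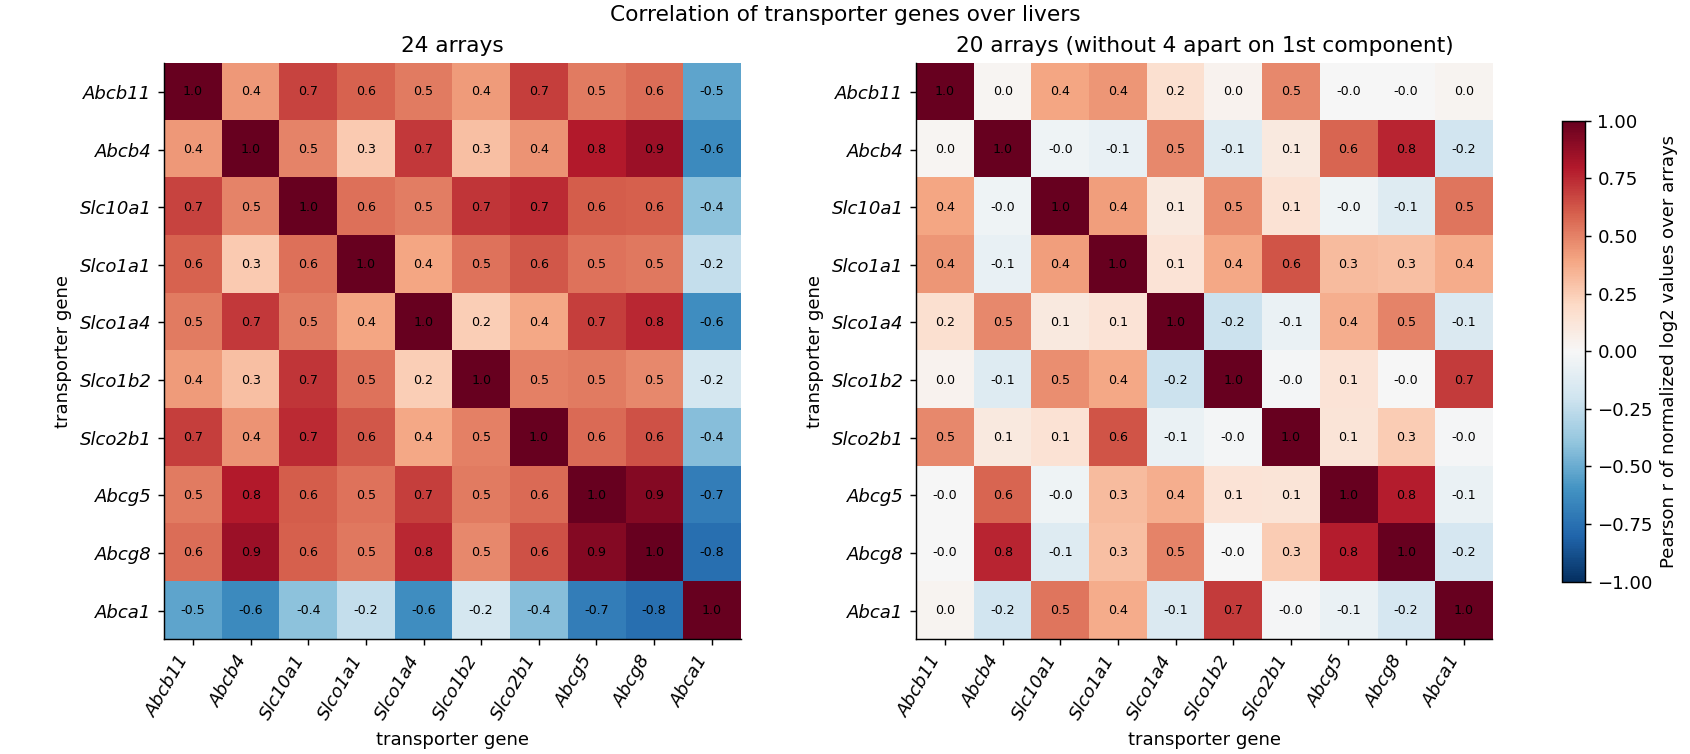
Pearson r between normalized log2 values of each pair of transporter genes over all 24 arrays (left) and over 20 arrays without the 4 apart on the first component (right); red is positive and blue negative. The block of Abcb4, Abcg5 and Abcg8 stays red in both panels, while in the Abca1 row the cell of Abcg8 goes from -0.756 to -0.168 and those of Slco1b2, Slc10a1 and Slco1a1 turn from blue to red.

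Outside the transporters, the 5 genes most like Abcb11 over the 24 arrays, among 9086 genes above the median level, were Fam149a (r = 0.847), Khk (0.840), Coq8a (0.839), Ces2a (0.830) and Arhgap24 (0.818). Khk encodes ketohexokinase, which phosphorylates fructose, Coq8a a protein of coenzyme Q synthesis and Ces2a a carboxylesterase. Without the 4 arrays their coefficients were 0.742, 0.774, 0.681, 0.686 and 0.663. Diet groups are part of these coefficients, and within groups they were 0.647 to 0.738.

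The regulators of these transporters were read as a list of 20 genes, of which 17 were measured. For the slope 1 of the 17 fell, 0 rose and 9 were lower, with a median of -0.0062 against -0.014 over all genes, of which 0.0989% passed and 52.4% were lower. Without the 4 arrays 7 were lower and the median was 0.084, against 0.0049 over all genes, of which 49.2% were lower. The one that fell was Nr0b2, the small heterodimer partner, a repressor induced by the farnesoid X receptor. Its lowest, median and highest values were 8.54, 9.25 and 9.55 in controls, 8.69, 9.33 and 9.58 at 0.1%, 7.55, 8.30 and 9.46 at 0.5%, and 7.61, 8.10 and 8.43 at 1.0%. All 6 livers at 1.0% lay below every control liver. The slope was -1.22 (SE 0.23; limma, adjusted p = 0.0312), and without the 4 arrays it was -1.16 (SE 0.23) and no longer passed (limma, adjusted p = 0.0548). Against 0.1%, Nr0b2 fell at 1.0% by 1.21 on the log2 scale (limma, adjusted p = 0.0371), or by 1.21 without the 4 arrays (adjusted p = 0.0679), while against control its difference of -1.05 did not pass (adjusted p = 0.263).

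Nr1i2, the pregnane X receptor, rose at 1.0% against 0.1% by 0.61 on the log2 scale (SE 0.13; limma, adjusted p = 0.0371), or by 0.66 without the 4 arrays (limma, adjusted p = 0.0627), and its slope of 0.50 (SE 0.13) did not pass (limma, adjusted p = 0.0977). Srebf1, the sterol regulatory element binding protein of lipid synthesis, had a slope of -1.16 (SE 0.34) and Hnf4a, a hepatocyte master regulator, one of 0.48 (SE 0.16), and neither passed (limma, adjusted p = 0.167 and 0.237). Without the 4 arrays these were -0.66 and 0.20.

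Of 15 genes of bile acid synthesis and conjugation, all measured, 0 passed for the slope and 10 were lower, with a median of -0.067, and 4 had an unadjusted p under 0.05 in limma. Over all genes 52.4% were lower, the median was -0.014 and 10.9% were under that threshold. In the 20 remaining arrays 8 of the 15 were lower and the median was -0.016, against 49.2% and 0.0049 over all genes. These 4 were Cyp2c70, which makes muricholic acids (-0.31, SE 0.11), Akr1d1, a bile acid reductase (-0.40, SE 0.15), Slc27a5, which activates bile acids with coenzyme A (-0.21, SE 0.09), and Hsd3b7, a dehydrogenase of the pathway (-0.22, SE 0.10). Their limma adjusted p-values ran from 0.255 to 0.423. Leaving out the 4 arrays gave -0.46 for Cyp2c70, -0.27 for Akr1d1, -0.07 for Slc27a5 and -0.04 for Hsd3b7.

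Among 18 measured genes of 20 other organic anion, bile and drug transporters, 0 passed for the slope and 12 were lower. Their median was -0.088, against -0.014 over all genes, of which 52.4% were lower. Without the 4 arrays 13 of the 18 were lower and the median was -0.19, against 49.2% and 0.0049 over all genes. An unadjusted p under 0.05 in limma was found for 2 of the 18, near the 10.9% of all genes. The 2 were Slc22a7, an organic anion transporter (-0.48, SE 0.13, adjusted p = 0.126), and Abcc6 (-0.34, SE 0.13, adjusted p = 0.313), which were -0.29 and -0.15 without the 4 arrays. Abcc3, a basolateral exporter of bile salts and glucuronides, had a slope of 0.38 (SE 0.19), which was 0.60 (SE 0.17; limma, adjusted p = 0.249) without the 4 arrays. In the list of 12 flippase, scaffold and trafficking genes, all measured, 0 passed, 5 were lower and 2 had an unadjusted p under 0.05 in limma, against 10.9% of all genes: Atp8b1, the canalicular phosphatidylserine flippase (-0.32, SE 0.11), and Mal2, a protein of apical transport (-0.48, SE 0.17). Without the 4 arrays these were -0.22 and -0.51. Among 15 measured of 18 sterol handling and liver X receptor target genes 0 passed, 8 were lower and 0 had an unadjusted p under 0.05 in limma, against the same 10.9%. The smallest p there was that of Pctp, a phosphatidylcholine transfer protein (0.51, SE 0.32, and 0.96 without the 4 arrays).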

How the data were processed

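The authors deposited 1 table of intensity values on a linear scale for 45101 probe sets and 24 arrays, made from total liver RNA through biotin-labelled cRNA per the labels' protocols. What software, background correction and probe summary made them is not given in the sources used here. Symbols came from the platform annotation. Of the probe sets, 34945 carried 1 symbol, 932 carried several and 9160 were not listed there, and the array's control probe sets were left out.

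Values were taken as log2(intensity + 1), which understates changes of dim genes, and quantile normalized. Each of 18193 genes was represented by its brightest probe set. All 24 arrays were fitted in limma 3.58.1 (R 4.3.3, eBayes). A fit of group means gave two-sided tests for each pair of groups and an F test for any difference. A separate linear fit on dose, with its own estimate of the spread, gave the two-sided test of the slope. The fits were tested on simulated data. No pair of arrays was identical. Alternatives were other normalizations, a pseudocount of 16, probe set handling, a filter on dim genes, eBayes options, array weights, fits with the compared groups alone, a replicate block, sets of 3 replicates, exact permutation tests, each array left out and the 4 arrays of the first component left out. Leaving out 2 arrays with high 18S signal was chosen after seeing the data. The members, the 5 pathway and 14 marker lists and these rules were chosen with earlier results of these data known. All 10 transporters are named, with from each pathway list the genes that passed and those with the smallest p for the slope, up to 4, and the 5 genes most correlated with the transporter of smallest p. The p-values of limma measure the spread between mice and take cage mates as independent.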

Additional observations from a re-analysis of the deposited data

Results flagged for a closer look

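Each of the 10 transporters was looked at in each of the 4 diet groups of 6 arrays for a single array far from the others (Dixon's test at its 95% level). Of these 40 groups 2 had one, and chance gives about 1 in 20. Abcg8 in replicate 2 of the control group was 7.16, and the next lowest control was 7.47. Abca1 in replicate 5 of the 1.0% group was 9.73, and the next highest was 9.004.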

How the results depend on the processing

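The number of transporters that passed was 0 in all 8 comparisons, and over 302 counts under alternatives it was above 0 in 5. For any difference among the groups it was 1 with the trended and robust eBayes prior. For the slope it was 1 with a pseudocount of 16, with genes above the median level alone and with the trended and robust prior, and it ran from 0 to 1 over the 24 fits that each left out 1 array, being 1 without replicate 2 of the 1.0% group. The gene was Abcb11 each time. It was 0 in each comparison without the 2 arrays of high 18S signal (10.7 and 9.81, replicate 1 at 0.5% and replicate 6 at 1.0%). With the replicate block the count was 0 in each comparison. No pairing of the mice by replicate number was seen, as residuals of same-numbered mice correlated at -0.064 to 0.111 (36 pairs, 1 over 0.1). This check cannot exclude pairing, and it does not look at sets of several replicates. The 4 arrays set apart are all among replicates 4 to 6. With replicates 1 to 3 and 4 to 6 as sets, 59 genes passed for the slope, against 18 in the main fit. The transporter count stayed at 0. What these sets stand for was not tested.

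Without normalization the Abcb11 difference at 0.5% turned to 0.0010. With the mean of all probe sets Slco2b1 turned to 0.20 for 1.0% against 0.1% and to 0.19 for the slope. Of 70 differences and slopes of the 10 transporters, 45 changed sign in at least 1 alternative. For the 8 pairwise differences with an unadjusted p under 0.05, exact two-sided permutation tests over 924 regroupings gave p from 0.00649 to 0.0823, where the smallest possible is 0.00216.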
